A study of Saccharomyces cerevisiae with 12 samples.

Results

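Ergosterol synthesis and sterol regulation were followed through 30 genes of budding yeast, of 7109 gene identifiers in the count table. The set was defined by gene name. It held 9 genes of the mevalonate steps, 3 of the squalene steps, 11 of the late sterol steps, 2 electron donors, 3 transcriptional regulators and 2 sterol acyltransferases. All 30 passed the filter on low counts and were among the 6463 genes tested. Poly(A) RNA had been sequenced from 12 cultures of BY4741, a laboratory strain with several auxotrophies, with 3 libraries labelled as biological replicates in each of 4 groups. The groups were a hel2 deletion strain with and without methyl methanesulfonate (MMS), and the wild type with and without MMS. MMS methylates the bases of DNA and RNA, and HEL2 encodes a ubiquitin ligase that acts on collided ribosomes. Treated cells received MMS for 90 min at 30 °C in rich medium, and the labels give no dose. They do not say how many clones of the deletion strain were used. Libraries are named by group and replicate, from hel2_MMS_1 to WT_3.

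Ergosterol is the main sterol of fungal membranes, where it sets fluidity and permeability much as cholesterol does in animals. Acetyl-CoA is condensed to HMG-CoA, reduced to mevalonate and built up to farnesyl pyrophosphate, which also feeds dolichol, ubiquinone, heme A and protein prenylation. Squalene is formed from farnesyl pyrophosphate, epoxidised and cyclised to lanosterol, and the late steps turn lanosterol into ergosterol. Several of these steps use molecular oxygen, with electrons from cytochrome P450 reductase or cytochrome b5. When sterols run low, the zinc cluster factors Upc2 and Ecm22 activate the synthesis genes, and excess sterol is esterified and stored in lipid droplets.

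Library totals ran from 36472686 to 53638964 counts. WT_MMS_1 had the lowest total and stood apart from the other libraries of its group. The SD over genes of its log2 deviation from them was 0.493, the highest of the 12 libraries. The 30 sterol genes lay at a median of 0.27 above the other libraries of that group in WT_MMS_1. HEL2 had 19 to 39 counts in the deletion libraries and 928 to 2431 in the wild type libraries. The auxotrophic marker LEU2 had 19374 to 28105 counts in the deletion libraries and 2 to 28 in the wild type libraries, so loss of HEL2 and the state of LEU2 cannot be told apart in comparisons of the strains. The genes of mating type a, which BY4741 carries, stood at 67.2 to 1251 CPM (counts per 1000000 counts of the scaled library). URA3, which BY4741 lacks, had 378 counts in WT_MMS_2 and 2 to 12 in the other libraries; what put them there was not tested. Of the genes specific to mating type alpha, MF(ALPHA)1, MF(ALPHA)2 and STE3 stood at 1.04 to 13.3 CPM and SAG1 at 40.5 to 104 CPM.

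The sterol genes took 0.540% ± 0.00884 of all counts in MMS-treated hel2 cells against 0.922% ± 0.0233 in untreated hel2 cells (SD, n = 3 each). In the wild type they took 0.631% ± 0.0127 with MMS against 0.943% ± 0.0271 without. These shares are taken over the total counts of each library, which amounts to library-size scaling, so they also depend on the counts of other genes. The treated and untreated shares did not overlap in either strain, and the exact permutation test gave p = 0.1, the smallest p that 3 libraries against 3 allow. The untreated strains were closer, with an exact permutation p of 0.4. As the RNA came from whole cultures, fewer cells with a transcript and less of it per cell cannot be told apart. As the counts are relative, a fall of these transcripts and a rise of other RNA cannot be told apart either.

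To see how sterol genes responded to the alkylating agent, treated and untreated cells were compared within each strain. Most of the pathway fell in both. Of the 30 genes, 28 fell, 1 rose and 1 did not pass in hel2 cells, where 36.2% of all genes tested were lower and 39.2% higher. In the wild type 24 fell, 3 rose and 3 did not pass, where 34.2% of all genes were lower and 35.6% higher. The median log2 fold change of the sterol genes was -1.001 in hel2 cells and -0.87 in the wild type, against 0.06 and 0.02 over all genes. Falls of at least 2-fold were seen for 15 sterol genes in hel2 cells and 12 in the wild type, where 18% and 14.5% of all genes fell that far. A gene passed at an adjusted p under 0.05 in edgeR's quasi-likelihood test with Benjamini-Hochberg adjustment over all 6463 genes.

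Treated and untreated libraries did not overlap for 29 of the 30 genes in hel2 cells and for 27 in the wild type, against 81.4% and 71.4% of all genes. Both strains shared 23 genes that fell and 1 that rose, ARE2. ERG4 and ARE1 fell in hel2 cells and rose in the wild type, but neither fall passed with library-size scaling. With counts scaled by library size instead, 19 sterol genes fell and 5 rose in each strain. Of all genes 1275 then fell in hel2 cells and 1334 in the wild type. The number of all genes that then rose is not given here, so the 5 rises have no share beside them. That scaling moved the median of all genes to 0.61 in hel2 cells and 0.33 in the wild type. The median of the sterol genes lay 1.05 below that of all genes in hel2 cells and 0.89 below it in the wild type under library-size scaling, and 1.06 and 0.88 below it as reported here. A change of scaling shifts all genes by nearly the same amount, so this gap could hardly move and is no test of the calls.

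**Figure D1:**
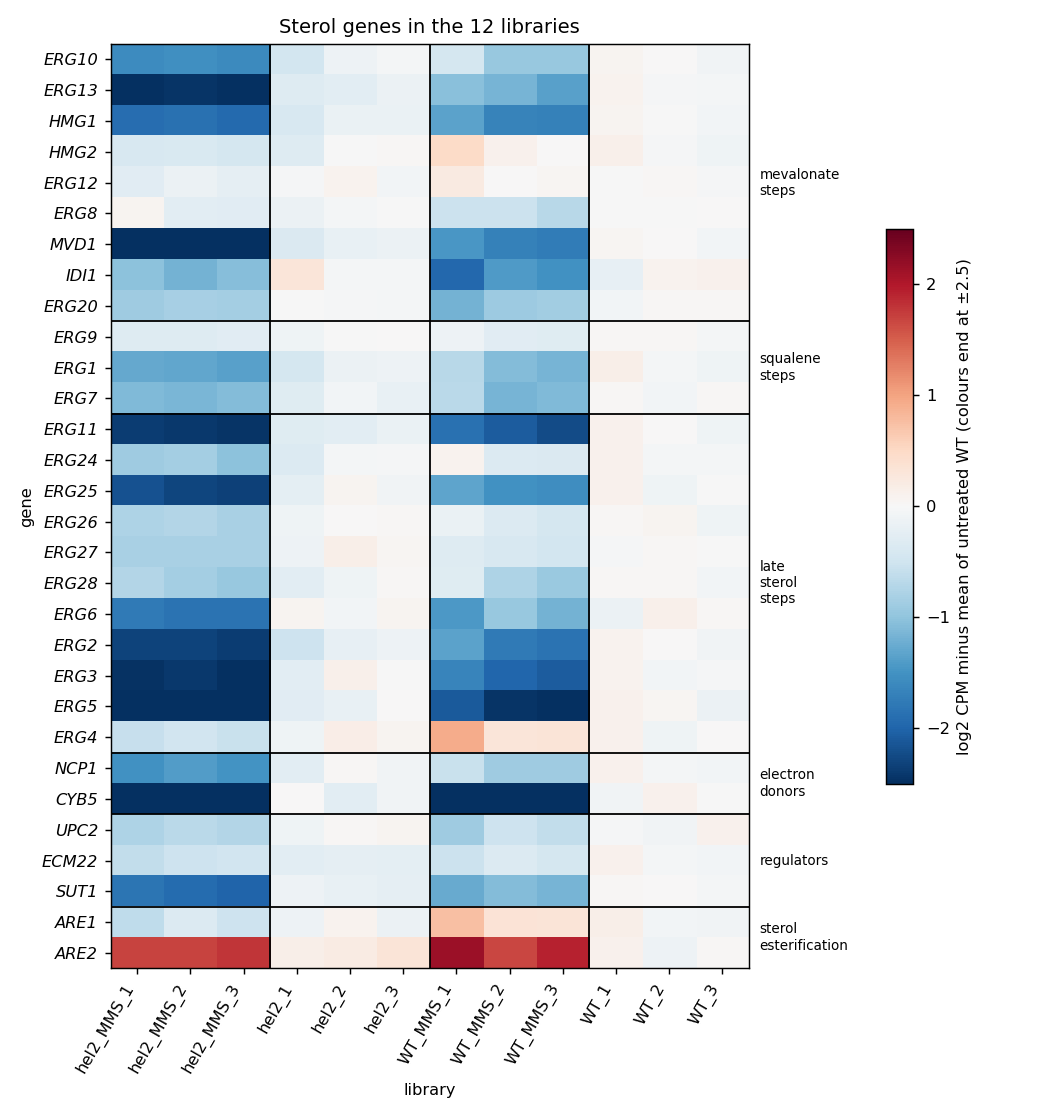
Each row is a sterol gene and each column a library, and the colour is the log2 CPM minus the mean of the 3 untreated wild type libraries, with colours ending at 2.5 in either direction. Most rows are blue in the MMS-treated libraries of both strains, CYB5 the deepest, while ARE2 is red in all 6 treated libraries.

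**Figure D2:**
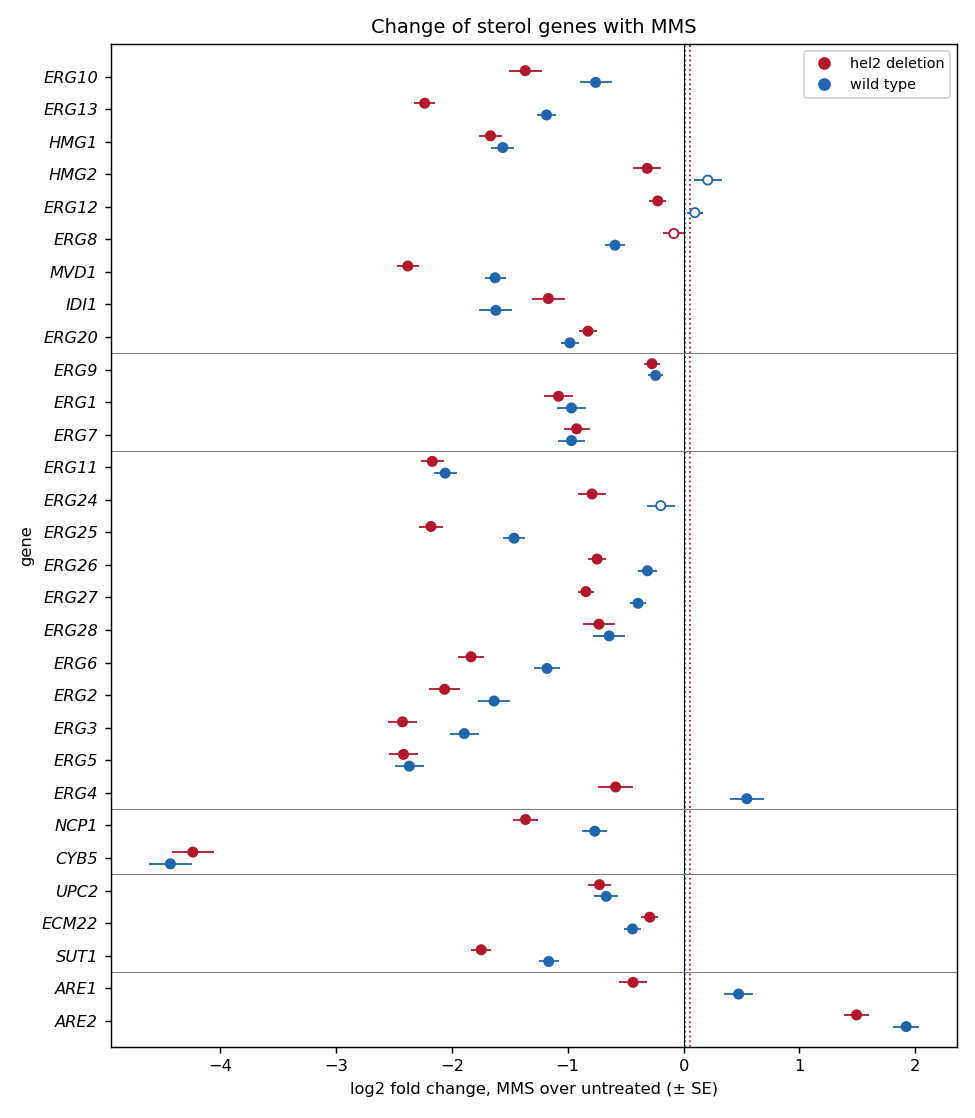
Points are log2 fold changes of MMS over untreated cells with their SE, for the hel2 deletion and the wild type, filled where the gene passed. Dotted lines mark the medians of all genes, 0.06 and 0.02, and the points run from -4.43 for CYB5 to 1.92 for ARE2, both in the wild type.

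The mevalonate steps held 8 genes that fell and 1 that did not pass in hel2 cells, and 7 and 2 in the wild type, with medians of -1.17 and -0.98. ERG10 (YPL028W), the acetoacetyl-CoA thiolase gene that opens the pathway, had 287, 294 and 283 CPM in MMS-treated hel2 cells against 623, 783 and 823 CPM untreated. ERG10 had 633, 444 and 441 CPM in MMS-treated wild type cells against 897, 866 and 808 CPM untreated. The treated libraries lay below all untreated ones in each strain, with WT_MMS_1 the highest of the treated wild type. The log2 fold change of ERG10 was -1.37 ± 0.14 in hel2 cells (SE, adjusted p = 1.13e-06) and -0.76 ± 0.14 in the wild type (adjusted p = 0.000284).

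ERG13 (YML126C) encodes HMG-CoA synthase, which adds a further acetyl-CoA. It had 114, 117 and 114 CPM in MMS-treated hel2 cells against 515, 531 and 578 CPM untreated. ERG13 had 309, 286 and 251 CPM in MMS-treated wild type cells against 677, 631 and 615 CPM untreated. The treated hel2 libraries were the lowest of the 4 groups and hardly differed among themselves. ERG13 fell by 2.23 ± 0.09 on the log2 scale in hel2 cells (adjusted p = 8.39e-11) and by 1.18 ± 0.09 in the wild type (adjusted p = 4.84e-08).

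HMG1 (YML075C) and HMG2 (YLR450W) are isozymes of HMG-CoA reductase, the rate-limiting enzyme of the pathway. HMG1 had 75.1, 76.4 and 73.2 CPM in MMS-treated hel2 cells against 214, 249.8 and 250.0 CPM untreated. HMG1 had 111, 87.6 and 86.6 CPM in MMS-treated wild type cells against 293, 279 and 268 CPM untreated. HMG1 fell, with log2 fold changes of -1.67 ± 0.10 in hel2 cells (adjusted p = 4.4e-09) and -1.56 ± 0.10 in the wild type (adjusted p = 1.35e-08), with no overlap of libraries.

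HMG2 had 159, 162 and 156 CPM in MMS-treated hel2 cells against 169, 210.3 and 214 CPM untreated. HMG2 had 294, 227 and 212 CPM in MMS-treated wild type cells against 231, 206 and 197 CPM untreated. The wild type groups overlapped, and HMG2 did not pass there, at 0.21 ± 0.12 (adjusted p = 0.141), although it passed without WT_MMS_3 at 0.30 (adjusted p = 0.0495) and under library-size scaling at 0.50. In hel2 cells HMG2 fell by 0.31 ± 0.12 (adjusted p = 0.0312), against a rise of 0.25 under library-size scaling. This call was lost without hel2_MMS_1, hel2_MMS_2, hel2_MMS_3, hel2_2 or hel2_3 (adjusted p from 0.0592 to 0.115) and among genes averaging 4 or more in log2 CPM (adjusted p = 0.103).

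Within a library the count ratio of the isozymes is free of scaling. The log2 ratio of HMG1 to HMG2 counts was -1.09 ± 0.00493 in MMS-treated hel2 cells against 0.27 ± 0.0595 untreated (SD, n = 3 each). In the wild type it was -1.36 ± 0.0565 with MMS against 0.41 ± 0.0571 without. The treated and untreated ratios did not overlap in either strain, with an exact two-sided permutation p of 0.1, the smallest this design allows.

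The next mevalonate genes moved unevenly. MVD1 (YNR043W), the mevalonate pyrophosphate decarboxylase gene, had 76.3, 84.3 and 79.8 CPM in MMS-treated hel2 cells against 379, 430.4 and 443 CPM untreated. MVD1 had 177, 151 and 146 CPM in MMS-treated wild type cells against 505, 492 and 467 CPM untreated. MVD1 fell, with log2 fold changes of -2.38 ± 0.09 in hel2 cells (adjusted p = 7.55e-11) and -1.63 ± 0.09 in the wild type (adjusted p = 4.1e-09). The mevalonate kinase gene ERG12 (YMR208W) stood at 75.8 to 83.4 CPM in MMS-treated hel2 cells against 88.9 to 98.4 CPM untreated, and at 93.6 to 108 CPM in MMS-treated wild type cells against 91 to 94.4 CPM untreated. ERG12 did not pass in the wild type, at 0.10 ± 0.07 (adjusted p = 0.242), but did under library-size scaling, at 0.40. In hel2 cells it fell by 0.22 ± 0.07 (adjusted p = 0.0125), against a rise of 0.33 under library-size scaling. That call was lost without hel2_MMS_1 (adjusted p = 0.0554) or hel2_2 (adjusted p = 0.0573) and among genes averaging 4 or more in log2 CPM (adjusted p = 0.0968).

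ERG8 (YMR220W), the phosphomevalonate kinase gene, behaved the other way round. It had 133, 107 and 105 CPM in MMS-treated hel2 cells against 116, 123 and 126 CPM untreated, and did not pass there at -0.08 ± 0.09 (adjusted p = 0.403). Without hel2_MMS_1, the library at 133 CPM, its change was -0.20 (adjusted p = 0.0267), and under library-size scaling 0.47. ERG8 had 87.4, 87.2 and 78.9 CPM in MMS-treated wild type cells against 127, 127 and 128 CPM untreated, and fell by 0.59 ± 0.09 (adjusted p = 5.73e-05).

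IDI1 (YPL117C), the isopentenyl diphosphate isomerase gene, had 49.3, 44.3 and 48.3 CPM in MMS-treated hel2 cells against 124, 97.1 and 97.9 CPM untreated. IDI1 had 25.6, 37.7 and 35.1 CPM in MMS-treated wild type cells against 87.8, 107 and 108 CPM untreated. IDI1 fell, with log2 fold changes of -1.17 ± 0.14 in hel2 cells (adjusted p = 5.48e-06) and -1.62 ± 0.14 in the wild type (adjusted p = 3.49e-07). ERG20 (YJL167W), which encodes farnesyl pyrophosphate synthase, stood at 152 to 157 CPM in MMS-treated hel2 cells against 269 to 279 CPM untreated. ERG20 stood at 124 to 152 CPM in MMS-treated wild type cells against 268 to 286 CPM untreated. ERG20 fell, with log2 fold changes of -0.82 ± 0.08 in hel2 cells (adjusted p = 4.33e-07) and -0.98 ± 0.08 in the wild type (adjusted p = 1.12e-07), but in hel2 cells the call was lost under library-size scaling (-0.27, adjusted p = 0.0781).

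All 3 squalene genes fell in both strains, with medians of -0.92 in hel2 cells and -0.97 in the wild type, except that ERG9 did not fall with library-size scaling in either. ERG9 (YHR190W), the squalene synthase gene at the branch into sterols, had 222, 221 and 228 CPM in MMS-treated hel2 cells against 258, 275 and 277 CPM untreated. ERG9 had 251, 226 and 223 CPM in MMS-treated wild type cells against 280.0, 283 and 265 CPM untreated. The groups were close but did not overlap. ERG9 fell, with log2 fold changes of -0.27 ± 0.07 in hel2 cells (adjusted p = 0.0024) and -0.24 ± 0.07 in the wild type (adjusted p = 0.00605), against changes of 0.29 (adjusted p = 0.00052) and 0.07 (adjusted p = 0.318) under library-size scaling.

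ERG1 (YGR175C), the squalene epoxidase gene and target of terbinafine, had 304, 299.5 and 289 CPM in MMS-treated hel2 cells against 546, 669 and 672 CPM untreated. ERG1 had 458, 349 and 328 CPM in MMS-treated wild type cells against 815, 715 and 688 CPM untreated. ERG1 fell, with log2 fold changes of -1.08 ± 0.13 in hel2 cells (adjusted p = 4.19e-06) and -0.97 ± 0.13 in the wild type (adjusted p = 1.47e-05). ERG7 (YHR072W), which encodes lanosterol synthase, had 64.9, 63.6 and 65.9 CPM in MMS-treated hel2 cells against 113, 133 and 123 CPM untreated. ERG7 had 87.5, 62 and 64.9 CPM in MMS-treated wild type cells against 142, 133 and 143 CPM untreated. ERG7 fell, with log2 fold changes of -0.92 ± 0.11 in hel2 cells (adjusted p = 5.81e-06) and -0.97 ± 0.11 in the wild type (adjusted p = 5e-06).

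All 11 genes of the late sterol steps fell in hel2 cells, and their median was -1.83, although ERG4 and ERG28 lost their calls under library-size scaling. Of the 11 genes in the wild type, 9 fell, ERG4 rose and ERG24 did not pass, and the median was -1.18. These medians lay below those of the mevalonate steps, -1.17 and -0.98, a contrast that was not tested. Falls of at least 2-fold came to 6 of 11 late genes and 5 of 9 mevalonate genes in hel2 cells. In the wild type they came to 6 of 11 and 4 of 9. Both cytochromes P450 of the pathway were among the lowest. ERG11 (YHR007C), the lanosterol demethylase gene and target of azole drugs, had 203, 198 and 190.5 CPM in MMS-treated hel2 cells against 855, 871 and 933 CPM untreated. ERG11 had 287, 247 and 222 CPM in MMS-treated wild type cells against 1122, 1057 and 971 CPM untreated. ERG11 fell, with log2 fold changes of -2.17 ± 0.10 in hel2 cells (adjusted p = 3.87e-10) and -2.06 ± 0.10 in the wild type (adjusted p = 1.33e-09).

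ERG5 (YMR015C) encodes the sterol C-22 desaturase. It had 35.7, 34.6 and 32.8 CPM in MMS-treated hel2 cells against 166, 180.1 and 205 CPM untreated. ERG5 had 47.4, 37.1 and 34.4 CPM in MMS-treated wild type cells against 219.8, 209 and 184 CPM untreated. ERG5 fell, with log2 fold changes of -2.42 ± 0.12 in hel2 cells (adjusted p = 8.93e-10) and -2.37 ± 0.12 in the wild type (adjusted p = 2.27e-09).

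ERG3 (YLR056W), the sterol C-5 desaturase gene, had 248, 256 and 238 CPM in MMS-treated hel2 cells against 1135, 1497 and 1358 CPM untreated. ERG3 had 437, 347 and 324 CPM in MMS-treated wild type cells against 1462, 1304 and 1350 CPM untreated. ERG3 fell, with log2 fold changes of -2.43 ± 0.13 in hel2 cells (adjusted p = 1.39e-09) and -1.89 ± 0.13 in the wild type (adjusted p = 2.19e-08). ERG25 (YGR060W) encodes the C-4 methyl sterol oxidase. It had 162, 149.9 and 146 CPM in MMS-treated hel2 cells against 618, 762 and 692 CPM untreated. ERG25 had 292, 254 and 250.3 CPM in MMS-treated wild type cells against 786, 682 and 728 CPM untreated. ERG25 fell, with log2 fold changes of -2.18 ± 0.10 in hel2 cells (adjusted p = 3.58e-10) and -1.46 ± 0.10 in the wild type (adjusted p = 2.39e-08).

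ERG6 (YML008C), the sterol methyltransferase gene that gives fungal sterols their extra side-chain carbon, had 113, 107 and 107 CPM in MMS-treated hel2 cells against 399.6, 365 and 402 CPM untreated. ERG6 had 142, 199 and 168 CPM in MMS-treated wild type cells against 347, 417 and 389 CPM untreated. ERG6 fell, with log2 fold changes of -1.83 ± 0.11 in hel2 cells (adjusted p = 6.31e-09) and -1.18 ± 0.11 in the wild type (adjusted p = 6.56e-07). ERG2 (YMR202W), the sterol C-8 isomerase gene, stood at 179 to 189 CPM in MMS-treated hel2 cells against 655 to 861 CPM untreated, and at 259 to 371 CPM in MMS-treated wild type cells against 879 to 989.6 CPM untreated. ERG2 fell, with log2 fold changes of -2.06 ± 0.14 in hel2 cells (adjusted p = 1.42e-08) and -1.64 ± 0.14 in the wild type (adjusted p = 1.82e-07).

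Smaller falls were seen for the other members of the demethylation complex that ERG25 belongs to. ERG26 (YGL001C), a C-3 sterol dehydrogenase gene, fell by 0.75 ± 0.08 in hel2 cells (adjusted p = 1.77e-06) and by 0.31 ± 0.08 in the wild type (adjusted p = 0.00361). ERG27 (YLR100W), the 3-keto sterol reductase gene, fell by 0.84 ± 0.07 in hel2 cells (adjusted p = 2e-07) and by 0.39 ± 0.07 in the wild type (adjusted p = 0.000305). In the wild type both lost their calls under library-size scaling, at -0.007 and -0.08. ERG28 (YER044C), a gene for the scaffold of that complex, fell by 0.73 ± 0.14 in hel2 cells (adjusted p = 0.000285), though not past the threshold under library-size scaling (-0.17, adjusted p = 0.12). In the wild type ERG28 fell by 0.64 ± 0.14 (adjusted p = 0.000923).

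The exceptions among the late steps in the wild type were ERG24 and ERG4. ERG24 (YNL280C), a sterol reductase gene that acts right after Erg11, had 124, 127 and 112 CPM in MMS-treated hel2 cells against 181, 223 and 223 CPM untreated, a fall of 0.79 ± 0.12 (adjusted p = 4.93e-05). ERG24 had 242, 180.3 and 178 CPM in MMS-treated wild type cells against 246, 222 and 221 CPM untreated, and did not pass at -0.20 ± 0.12 (adjusted p = 0.158). It passed without WT_MMS_1, the library at 242 CPM, at -0.36 (adjusted p = 0.00248). ERG4 (YGL012W), the reductase gene of the last step, had 446, 479.9 and 452 CPM in MMS-treated hel2 cells against 621, 748 and 699.7 CPM untreated. ERG4 had 1279, 819 and 834 CPM in MMS-treated wild type cells against 717, 618 and 673 CPM untreated. ERG4 fell by 0.59 ± 0.15 in hel2 cells (adjusted p = 0.00296) and rose by 0.55 ± 0.15 in the wild type (adjusted p = 0.00534), although the hel2 change was -0.03 under library-size scaling (adjusted p = 0.806). Without WT_MMS_1, the library at 1279 CPM, the change of ERG4 in the wild type was 0.30 (adjusted p = 0.00859).

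The electron donors fell in both strains. CYB5 (YNL111C), the cytochrome b5 gene, had 3.41, 3.07 and 2.62 CPM in MMS-treated hel2 cells against 61.9, 51.4 and 57.9 CPM untreated. CYB5 had 2.77, 3.74 and 2.08 CPM in MMS-treated wild type cells against 57.6, 66 and 61.2 CPM untreated. Every treated library was far below every untreated one. CYB5 fell by 4.24 ± 0.18 in hel2 cells (adjusted p = 1.49e-10), where 8 of the 6463 genes had a lower log2 fold change. In the wild type it fell by 4.43 ± 0.18 (adjusted p = 3.49e-10), where 3 genes had a lower one. NCP1 (YHR042W), the cytochrome P450 reductase gene, had 282, 305 and 288 CPM in MMS-treated hel2 cells against 669, 823 and 763 CPM untreated. NCP1 had 552, 437 and 437 CPM in MMS-treated wild type cells against 874, 779.6 and 774 CPM untreated. NCP1 fell, with log2 fold changes of -1.36 ± 0.11 in hel2 cells (adjusted p = 9.62e-08) and -0.77 ± 0.11 in the wild type (adjusted p = 3.07e-05).

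**Figure D3:**
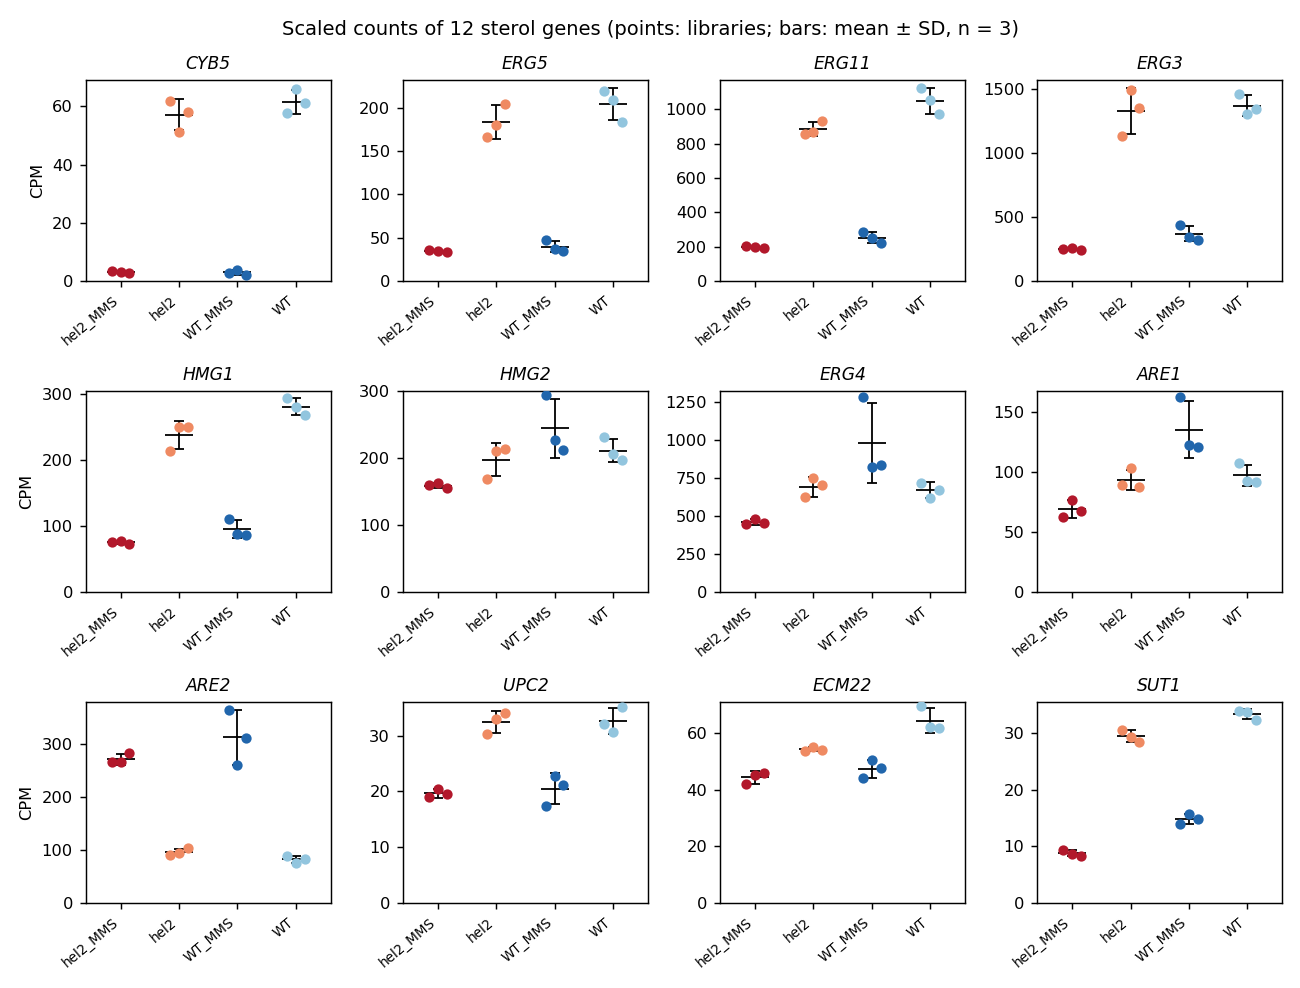
Each panel plots CPM in the 4 groups for a sterol gene, with points for libraries and bars for the mean and SD of 3. CYB5, ERG5, ERG11, ERG3 and HMG1 are low in both treated groups, ARE2 is high in both, and ERG4 and ARE1 are low in the treated hel2 cells and high in the treated wild type, where with library-size scaling neither hel2 change passed.

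All 3 regulators fell in both strains, except that with library-size scaling ECM22 changed by 0.27 in hel2 cells (adjusted p = 0.0615) and neither UPC2 nor, in the wild type, ECM22 passed. UPC2 (YDR213W) had 19, 20.5 and 19.5 CPM in MMS-treated hel2 cells against 30.3, 33 and 34.1 CPM untreated. UPC2 had 17.4, 22.8 and 21.2 CPM in MMS-treated wild type cells against 32, 30.6 and 35.1 CPM untreated. UPC2 fell, with log2 fold changes of -0.73 ± 0.10 in hel2 cells (adjusted p = 2.71e-05) and -0.67 ± 0.10 in the wild type (adjusted p = 7.29e-05). Its paralog ECM22 (YLR228C) had 41.8, 45.1 and 46 CPM in MMS-treated hel2 cells against 53.6, 55 and 54.1 CPM untreated. ECM22 had 44.2, 50.5 and 47.6 CPM in MMS-treated wild type cells against 69.5, 61.9 and 61.7 CPM untreated. As reported, ECM22 fell by 0.29 ± 0.07 in hel2 cells (adjusted p = 0.00281) and by 0.44 ± 0.07 in the wild type (adjusted p = 0.000136).

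The log2 ratio of UPC2 to ECM22 counts was -1.17 ± 0.0564 in MMS-treated hel2 cells against -0.74 ± 0.0771 untreated, and -1.22 ± 0.107 in MMS-treated wild type cells against -0.98 ± 0.157 untreated (SD, n = 3 each). Treated and untreated ratios did not overlap in either strain, with an exact permutation p of 0.1. SUT1 (YGL162W), a factor for sterol uptake in the absence of oxygen, had 9.33, 8.72 and 8.32 CPM in MMS-treated hel2 cells against 30.6, 29.4 and 28.5 CPM untreated. SUT1 had 14, 15.8 and 14.9 CPM in MMS-treated wild type cells against 33.9, 33.8 and 32.4 CPM untreated. The 4 groups were tight and the treated hel2 libraries the lowest. SUT1 fell, with log2 fold changes of -1.75 ± 0.09 in hel2 cells (adjusted p = 6.29e-10) and -1.16 ± 0.08 in the wild type (adjusted p = 4.84e-08).

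The acyltransferases that esterify sterols moved against the synthesis genes or apart from each other. ARE2 (YNR019W), the main acyltransferase gene of aerobic cells, had 265, 265 and 282 CPM in MMS-treated hel2 cells against 90.4, 95.1 and 103 CPM untreated. ARE2 had 364, 260.0 and 311 CPM in MMS-treated wild type cells against 88, 75.4 and 83.4 CPM untreated. ARE2 rose by 1.49 ± 0.11 in hel2 cells (adjusted p = 3.59e-08) and by 1.92 ± 0.11 in the wild type (adjusted p = 5.57e-09). ARE1 (YCR048W) had 62.3, 76.9 and 68 CPM in MMS-treated hel2 cells against 89.1, 103 and 87.9 CPM untreated. ARE1 had 163, 122 and 121 CPM in MMS-treated wild type cells against 108, 92.7 and 91.9 CPM untreated. ARE1 fell by 0.44 ± 0.12 in hel2 cells (adjusted p = 0.00589) and rose by 0.48 ± 0.12 in the wild type (adjusted p = 0.00381), although the hel2 change was 0.12 under library-size scaling (adjusted p = 0.266).

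The log2 ratio of ARE2 to ARE1 counts was 1.97 ± 0.167 in MMS-treated hel2 cells against 0.04 ± 0.173 untreated, and 1.20 ± 0.141 in MMS-treated wild type cells against -0.24 ± 0.089 untreated (SD, n = 3 each). The ratio was higher in every treated library than in any untreated one of the same strain, with an exact permutation p of 0.1.

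To learn what loss of Hel2 did to sterol genes, the deletion strain was compared with the wild type under each condition. Without MMS no sterol gene passed in either direction in edgeR's test, where 5.25% of all genes were higher and 3.33% lower. At an unadjusted p under 0.05 there were 5 sterol genes, all lower, against 22.6% of all genes. DESeq2 called 2 lower and limma-voom none. The log2 differences ran from -0.27 for ERG2 to 0.22 for ARE2, with SEs up to 0.15, and their median was -0.10 against 0.01 over all genes. Libraries of the strains did not overlap for 11 of the 30 genes, against 31.9% of all genes.

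ECM22 came nearest to a call without MMS, at -0.25 ± 0.07 (adjusted p = 0.0584). It passed with median-ratio scaling (RLE) at -0.27 (adjusted p = 0.0433), with DESeq2 (adjusted p = 0.00912) and among genes averaging 4 or more in log2 CPM (adjusted p = 0.0392). ERG13 was the other gene called by DESeq2, at -0.27 (adjusted p = 0.0447). ARE2, at 0.22 ± 0.11 (adjusted p = 0.234), passed under library-size scaling at 0.32 (adjusted p = 0.0259).

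Under MMS the strains parted. Of the 30 genes, 19 were lower in hel2 cells, 2 higher and 9 did not pass, where 29.8% of all genes were lower and 32% higher. The median was -0.39 against 0.03 over all genes. A fall of at least 2-fold was seen for 2 sterol genes, ERG13 and ERG4, where 7.21% of all genes fell that far. Libraries did not overlap for 21 of the 30 genes, against 68.3% of all genes. Library-size scaling moved the median of all genes to 0.37 and that of the sterol genes to -0.04. With it 12 sterol genes were lower and 5 higher, where 984 genes of all were lower and 3143 higher. The sterol median lay 0.41 below that of all genes under that scaling and 0.42 below it as reported, a gap that a change of scaling can hardly move.

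Among the mevalonate steps 6 genes were lower and 2 higher in hel2 cells under MMS. ERG13 had a log2 difference of -1.30 ± 0.09 (adjusted p = 8.05e-08), MVD1 stood at -0.98 ± 0.09 (adjusted p = 1.17e-06) and ERG10 at -0.81 ± 0.14 (adjusted p = 0.000239). Both isozymes of HMG-CoA reductase were lower, HMG2 at -0.62 ± 0.12 (adjusted p = 0.00068) and HMG1 at -0.34 ± 0.10 (adjusted p = 0.00781), with HMG1 at 0.016 under library-size scaling and at -0.22 without WT_MMS_1 (adjusted p = 0.0153). ERG12 was at -0.32 ± 0.07 (adjusted p = 0.0018), or 0.03 under that scaling. The genes higher in hel2 cells were IDI1, at 0.53 ± 0.14 (adjusted p = 0.0058), and ERG8, at 0.44 ± 0.09 (adjusted p = 0.000845). ERG20 did not pass at 0.13 ± 0.08 (adjusted p = 0.169), but passed under library-size scaling at 0.46 and among genes averaging 4 or more in log2 CPM at 0.19 (adjusted p = 0.0412).

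Of the squalene genes, ERG1 was lower at -0.35 ± 0.13 (adjusted p = 0.0293), or 0.02 under library-size scaling. Its call was lost without WT_MMS_1 (-0.19, adjusted p = 0.111), hel2_MMS_1, hel2_MMS_2 or hel2_MMS_3 (adjusted p from 0.0568 to 0.0819) and among genes averaging 4 or more in log2 CPM (adjusted p = 0.0593). ERG9 and ERG7 did not pass, at -0.06 ± 0.07 and -0.14 ± 0.11 (adjusted p = 0.436 and 0.293), and stood at 0.29 and 0.23 under library-size scaling.

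Of the late sterol genes 9 of 11 were lower in hel2 cells under MMS, with a median of -0.58, except that ERG11 stood at 0.0015 with library-size scaling. ERG4 stood at -1.09 ± 0.15 (adjusted p = 4.08e-05), ERG25 at -0.80 ± 0.10 (adjusted p = 1.36e-05) and ERG24 at -0.73 ± 0.12 (adjusted p = 0.000178). ERG11 was at -0.36 ± 0.10 (adjusted p = 0.00639). ERG26, ERG27 and ERG6 lost their calls under library-size scaling, at -0.10, -0.07 and -0.31. ERG5 and ERG28 did not pass, both at -0.20 (adjusted p = 0.154 and 0.22). NCP1 was lower at -0.70 ± 0.11 (adjusted p = 0.000102), while CYB5, low in both treated groups, did not pass at 0.08 ± 0.18 (adjusted p = 0.7).

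Among the regulators SUT1 was lower in hel2 cells under MMS, at -0.76 ± 0.08 (adjusted p = 6.49e-06). UPC2 and ECM22 did not pass, at -0.06 ± 0.10 and -0.10 ± 0.07 (adjusted p = 0.62 and 0.265). ARE1 was lower at -0.97 ± 0.12 (adjusted p = 2.13e-05). ARE2 did not pass at -0.20 ± 0.11 (adjusted p = 0.114), but passed without WT_MMS_2 at -0.32 (adjusted p = 0.00965).

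**Figure D4:**
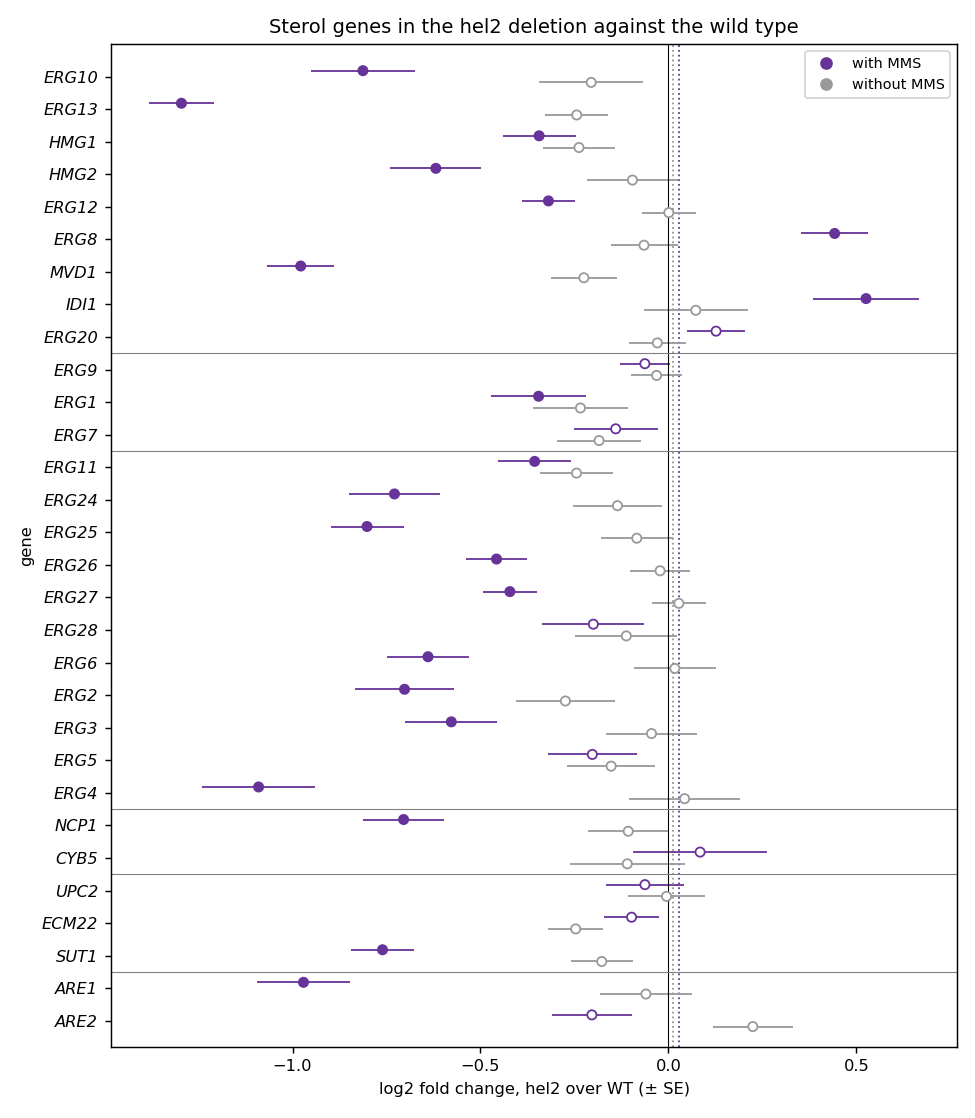
Points are log2 fold changes of the hel2 deletion over the wild type with their SE, with and without MMS, filled where the gene passed, and dotted lines are the medians of all genes. Without MMS no point is filled, and with MMS 19 filled points lie below 0 and 2, ERG8 and IDI1, above it.

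Whether MMS acted differently on the strains was tested as the MMS effect in hel2 cells minus that in the wild type. Of the 30 genes, 16 had a lower effect in hel2 cells, 1 a higher effect and 13 did not pass, where 21.5% of all genes were lower and 18.6% higher. The median was -0.43 against -0.01 over all genes. Without WT_MMS_1 it was -0.27, with the same counts of calls. Library-size scaling gave -0.16 against 0.23 over all genes, with 8 lower and 3 higher.

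Among the larger differences were those of ERG4, at -1.13 ± 0.21 (adjusted p = 0.00113), ERG13, at -1.05 ± 0.12 (adjusted p = 3.16e-05), ARE1, at -0.91 ± 0.17 (adjusted p = 0.00134), MVD1, at -0.75 ± 0.12 (adjusted p = 0.000546), and ERG25, at -0.72 ± 0.14 (adjusted p = 0.00131). ERG8 was the gene with a higher effect, at 0.51 ± 0.13 (adjusted p = 0.00676). Several genes with deep falls under MMS did not pass in this test. ERG11 stood at -0.11 ± 0.14 (adjusted p = 0.541), ERG5 at -0.05 ± 0.17 (adjusted p = 0.833), HMG1 at -0.11 ± 0.14 (adjusted p = 0.561) and CYB5 at 0.19 ± 0.23 (adjusted p = 0.535). None of the squalene genes passed, although under library-size scaling ERG7 did at 0.31 and ERG9 at 0.22, and of the regulators SUT1 alone did, at -0.58 ± 0.12 (adjusted p = 0.00193), a call lost under library-size scaling (-0.35, adjusted p = 0.17).

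Of the 17 calls in this test, 12 held when each library was left out in turn. ERG10 lost its call without hel2_MMS_1, hel2_MMS_3, hel2_2, hel2_3 or WT_3 (adjusted p from 0.0505 to 0.0687). HMG2 lost it without any of these or WT_2 (adjusted p from 0.0538 to 0.0724), and ERG3 without the same libraries as HMG2 (adjusted p from 0.0503 to 0.0722). ERG12 lost it without hel2_MMS_1, hel2_MMS_3, hel2_2 or WT_3 (adjusted p from 0.0518 to 0.0634) and among genes averaging 4 or more in log2 CPM (0.0517). ARE2 lost it without any hel2_MMS library, hel2_2, hel2_3, WT_MMS_3, WT_2 or WT_3 (adjusted p from 0.0529 to 0.0979) and at that average (0.063). Library-size scaling took the calls of HMG2, ERG12, ERG26, ERG27, ERG6, ERG3, SUT1 and ARE2. IDI1 and ERG2 passed when a library was left out. For IDI1 this was hel2_1 (0.58) or WT_MMS_2 (0.56), and for ERG2 hel2_1 (-0.54) or WT_MMS_3 (-0.53).

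Genes around the pathway were described through 9 lists with 88 genes, all of which were tested. Their counts stand against the shares of all genes tested, which with MMS were 39.2% higher and 36.2% lower in hel2 cells and 35.6% higher and 34.2% lower in the wild type. These shares do not hold for counts with library-size scaling. There 1275 genes of all fell in hel2 cells and 1334 in the wild type, and the medians of all genes were 0.61 and 0.33. How many of all genes then rose with MMS is not given here. Rises with MMS counted with that scaling are therefore not read as a result about a list. Fatty acid and sphingolipid synthesis, the other main supply of membrane lipids, had more genes that fell than rose in both strains. Of its 19 genes 16 fell with MMS in hel2 cells, where 36.2% of all genes did, and 12 fell and 2 rose in the wild type, where 34.2% fell. The medians were -1.12 and -0.47. With library-size scaling 12 fell and 4 rose in hel2 cells, and 10 fell and 6 rose in the wild type, with medians of -0.56 and -0.16. OLE1, the fatty acid desaturase gene, had 54, 48.9 and 46.7 CPM in MMS-treated hel2 cells against 779, 1016 and 870.0 CPM untreated. OLE1 had 244, 232 and 166 CPM in MMS-treated wild type cells against 1257, 1080 and 1210 CPM untreated. OLE1 fell, with log2 fold changes of -4.15 ± 0.16 in hel2 cells (adjusted p = 6.38e-11) and -2.47 ± 0.15 in the wild type (adjusted p = 7.81e-09). Under MMS 17 of the 19 genes were lower in hel2 cells than in the wild type and none higher, where 29.8% of all genes were lower and 32% higher. With library-size scaling 15 were lower and 2 higher, where 984 genes of all were lower and 3143 higher. Among them were the fatty acid elongase genes ELO3 at -2.91 ± 0.13 and ELO2 at -2.39 ± 0.12 (adjusted p = 5.74e-09 and 1.23e-08).

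Of the 3 genes that supply cytosolic acetyl-CoA, 2 fell and 1 rose with MMS in each strain. ACS2, the acetyl-CoA synthetase gene of glucose-grown cells, fell by 1.81 ± 0.10 in hel2 cells and by 1.28 ± 0.10 in the wild type (adjusted p = 1.6e-09 and 6.71e-08). ALD6, an acetaldehyde dehydrogenase gene, fell by 2.12 ± 0.12 in hel2 cells (adjusted p = 2.04e-09). Its change in the wild type was -0.55 (adjusted p = 0.000679). Without MMS ALD6 was higher in hel2 cells than in the wild type, at 0.45 (adjusted p = 0.0249). ACS1, the other acetyl-CoA synthetase gene, rose by 1.19 ± 0.19 in the wild type (adjusted p = 0.000113) and by 0.77 in hel2 cells (adjusted p = 0.00274).

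Heme is the cofactor of Erg11, Erg5 and cytochrome b5. Of 8 heme synthesis genes, 4 rose and 4 fell with MMS in hel2 cells, and 4 rose and 2 fell in the wild type, with medians of -0.09 and 0.22, or 0.47 and 0.53 with library-size scaling, where 5 rose and 2 fell, and 4 rose and 1 fell. In number the calls as reported, without library-size scaling, lie close to the shares of all genes that rose (39.2% and 35.6%) and fell (36.2% and 34.2%). HEM13, the oxygen-using coproporphyrinogen oxidase gene, had 35.7, 34.3 and 33.7 CPM in MMS-treated hel2 cells against 117, 128 and 127 CPM untreated, a fall of 1.84 ± 0.10 (adjusted p = 1.31e-09). Its change in the wild type was -0.34 (adjusted p = 0.00531), or -0.04 under library-size scaling (adjusted p = 0.678). HEM3, the porphobilinogen deaminase gene, fell by 1.62 ± 0.07 in hel2 cells and by 0.71 ± 0.07 in the wild type (adjusted p = 1.89e-10 and 8.12e-07), and HEM12, the uroporphyrinogen decarboxylase gene, rose by 0.82 ± 0.09 in the wild type (adjusted p = 2.93e-06). HEM12 also rose in hel2 cells, by 0.38 (adjusted p = 0.00172). Under MMS HEM13 was lower in hel2 cells by a log2 difference of -1.85 ± 0.10 (adjusted p = 1.23e-08). It was one of 6 heme genes lower there, against 2 higher, where 29.8% of all genes were lower and 32% higher. With library-size scaling 5 were lower and 2 higher, where 984 genes of all were lower and 3143 higher. Without MMS HEM13 was also lower in hel2 cells, at -0.36 (adjusted p = 0.0335), a call lost without hel2_1, hel2_2, hel2_3, WT_1 or WT_2. That call was lost under library-size scaling too (-0.26, adjusted p = 0.0707).

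Genes that handle finished sterol moved in both directions. Of 8 genes for sterol uptake, acetylation and export, 3 rose and 5 fell with MMS in hel2 cells and 4 rose and 4 fell in the wild type. Of all genes 39.2% rose and 36.2% fell in hel2 cells, and 35.6% rose and 34.2% fell in the wild type. PRY1, which encodes a secreted sterol-binding protein, rose by 2.63 ± 0.13 in the wild type (adjusted p = 1.53e-09). It also rose in hel2 cells, by 1.42 (adjusted p = 2.47e-07). ATF2, a sterol acetyltransferase gene, fell by 3.02 ± 0.14 in hel2 cells and by 2.08 ± 0.13 in the wild type (adjusted p = 3e-10 and 1.36e-08). PRY2, a relative of PRY1, stood at 86.4, 91 and 86.4 CPM in MMS-treated hel2 cells against 527, 467 and 421 CPM in MMS-treated wild type cells, a log2 difference of -2.42 ± 0.09 (adjusted p = 1.05e-09). DAN1, a cell wall protein gene of anaerobic growth, fell by 3.56 ± 0.47 in hel2 cells (adjusted p = 3.62e-05). Its change in the wild type was -1.69 (adjusted p = 0.00673). Untreated, DAN1 stood at 22.4, 33.1 and 60.6 CPM in hel2 cells against 11.4, 13 and 7.4 CPM in the wild type. The treated means were 3.27 and 3.33 CPM. The untreated strains differed by 1.87 (adjusted p = 0.0248), a call lost without hel2_3, WT_1, WT_2 or WT_3.

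Of 15 sterol transport proteins, 9 rose and 5 fell in hel2 cells and 7 rose and 4 fell in the wild type, with medians of 0.49 and 0.17, or 1.04 and 0.48 with library-size scaling, where 12 rose and 3 fell, and 10 rose and 1 fell. The medians of all genes with that scaling were 0.61 and 0.33. LAM5, of a family of membrane contact site sterol transporters, rose by 1.83 ± 0.08 in hel2 cells and by 1.88 ± 0.08 in the wild type (adjusted p = 1.22e-10 and 2.95e-10). YSP2, of the same family, fell by 1.59 ± 0.12 in the wild type (adjusted p = 8.82e-08). Its change in hel2 cells was -1.27 (adjusted p = 5.35e-07). Both steryl ester hydrolase genes of the YEH pair fell in each strain, YEH1 by 1.47 ± 0.07 and YEH2 by 1.27 ± 0.10 in hel2 cells (adjusted p = 4.13e-10 and 9.44e-08). Their log2 fold changes in the wild type were -1.13 ± 0.07 and -0.81 ± 0.10 (adjusted p = 8.77e-09 and 9.88e-06). TGL1, the list's other gene, rose by 0.52 in hel2 cells and by 0.46 in the wild type. Without MMS, LAM5 and HES1 were higher in hel2 cells than in the wild type, at 0.40 and 0.67 (adjusted p = 0.00553 and 0.0224). YEH1 was lower, at -0.29 (adjusted p = 0.0171). The calls of HES1 and YEH1 were lost when some libraries were left out, at adjusted p up to 0.0949 and 0.0769. That of YEH1 was lost under library-size scaling too (-0.19, adjusted p = 0.175).

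Degradation at the endoplasmic reticulum and nuclear membrane limits Hmg2 and Erg11. Of 12 genes of endoplasmic reticulum degradation and INSIG, 8 rose and 1 fell in hel2 cells and 10 rose and 1 fell in the wild type, where 39.2% and 35.6% of all genes rose. The medians were 0.39 and 0.46, or 0.95 and 0.76 with library-size scaling. HRD1 and HRD3, of the Hrd1 ubiquitin ligase, were weak calls in hel2 cells (adjusted p = 0.0497 and 0.0256). Neither passed with median-ratio scaling (adjusted p = 0.171 and 0.0858). HRD1 also lost its call without any of the 6 hel2_MMS or hel2 libraries, and HRD3 without hel2_MMS_2, hel2_MMS_3 or hel2_3. ASI2, of the nuclear membrane ubiquitin ligase Asi, rose by 1.43 ± 0.08 in hel2 cells and by 1.32 ± 0.08 in the wild type (adjusted p = 1.46e-09 and 6.16e-09). Under MMS 4 of the 12 genes were lower in hel2 cells than in the wild type and 3 higher. Of all genes 29.8% were lower and 32% higher there. NSG1, an INSIG relative that stabilises Hmg2, was lower in hel2 cells under MMS at -0.94 ± 0.09 (adjusted p = 2.34e-06). Its paralog NSG2 was higher there, at 0.53 (adjusted p = 5.69e-05).

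Of 9 other regulators of sterol genes, 5 fell and 2 rose in hel2 cells and 6 fell and 2 rose in the wild type, or, with library-size scaling, 5 fell and 4 rose, and 2 fell and 2 rose. TUP1, a general corepressor gene, fell by 1.73 ± 0.10 in hel2 cells (adjusted p = 2.62e-09). Its change in the wild type was -0.56 (adjusted p = 0.000157). SUT2, the paralog of SUT1, fell by 1.57 ± 0.12 in hel2 cells and by 1.61 ± 0.12 in the wild type (adjusted p = 4.91e-08 and 5.62e-08). ROX1, a repressor of hypoxic genes, was higher in hel2 cells under MMS by 1.54 ± 0.14 (adjusted p = 1.05e-06). A list of 11 genes covered other uses of farnesyl pyrophosphate or of related prenyl pyrophosphates, as for MOD5. It gave 6 that rose and 2 that fell in hel2 cells, and 5 and 3 in the wild type, with medians of 0.37 and 0.40. With library-size scaling 9 rose and none fell in hel2 cells, and 6 rose and 1 fell in the wild type. That scaling put the medians of all genes at 0.61 and 0.33. BET4, of a protein prenyltransferase, rose by 1.26 ± 0.19 in hel2 cells (adjusted p = 5.76e-05). It rose in the wild type too, by 0.89 (adjusted p = 0.00141).

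**Figure D5:**
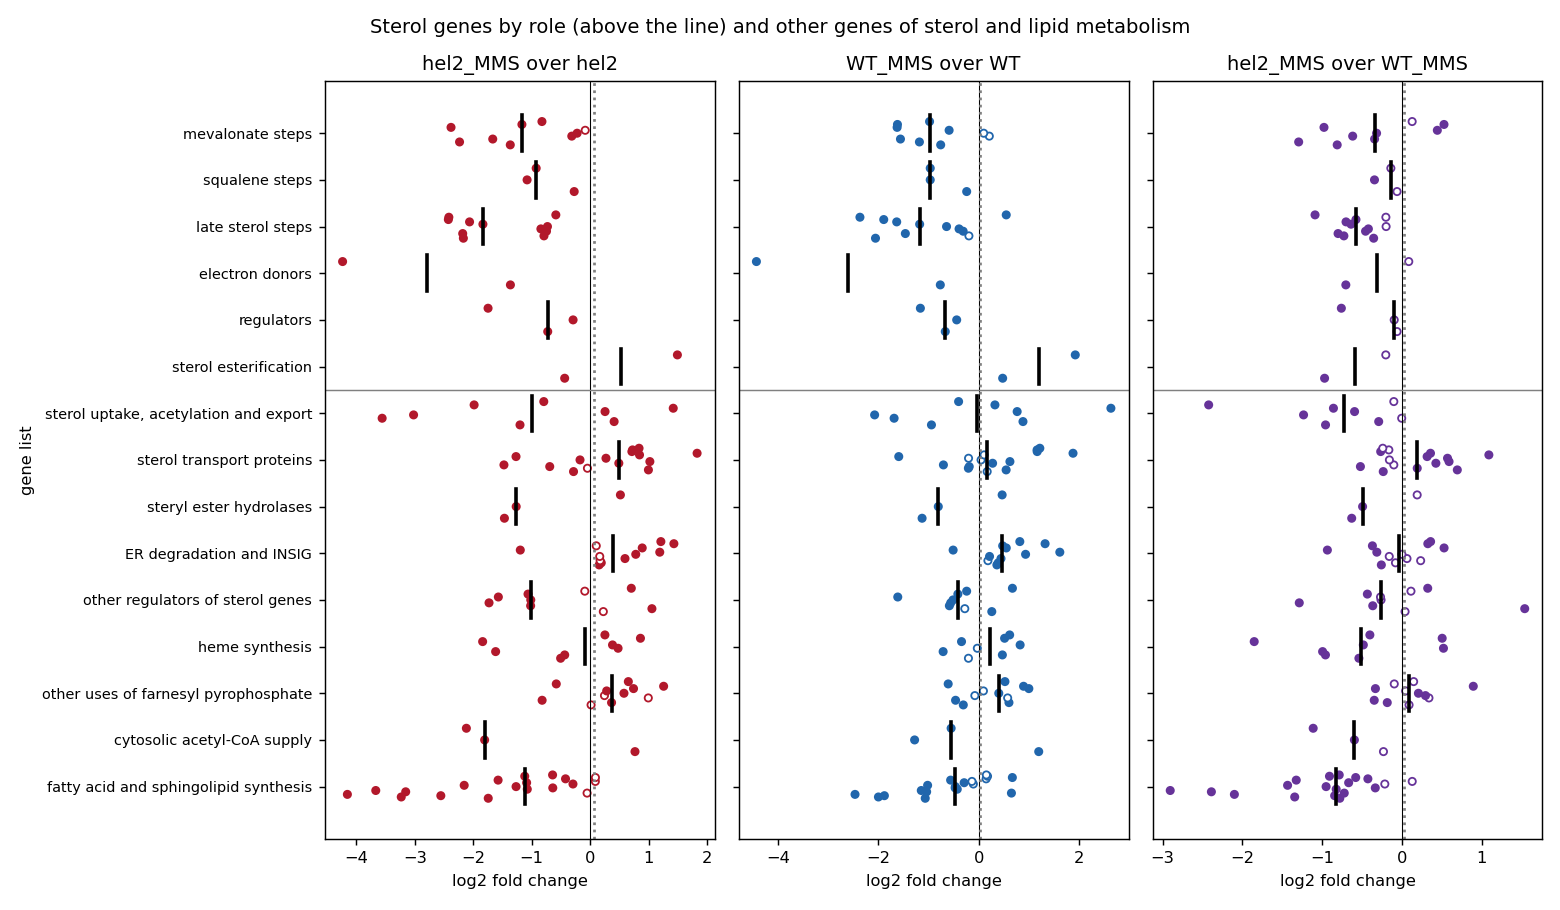
Each point is a gene's log2 fold change, filled where it passed, for the sterol genes by role above the line and the 9 lists around the pathway below it, in the comparisons hel2_MMS over hel2, WT_MMS over WT and hel2_MMS over WT_MMS. Black bars are list medians and dotted lines the medians of all genes, and the medians of late sterol steps (-1.83) and of fatty acid and sphingolipid synthesis (-1.12) lie left of that line in hel2 cells.

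The 30 sterol genes lie on 10 chromosomes, and none is next to another in the gene order of RefSeq assembly R64. The closest pair, ERG2 and ERG12, has 5 genes between. Per the descriptions in the deposited table, ERG7 and ERG27 are overlapped by dubious reading frames, which held 3 to 23 and 0 to 4 counts against 2786 to 5784 for ERG7 and 3968 to 7211 for ERG27.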

How the data were processed

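The authors deposited 1 table of whole read counts per gene, and its 12 sample columns were matched to the samples by their labels. STAR 2.5.1a, Subread, featureCounts 1.4.6-p5 and Salmon are named per the submitters' processing notes. Genome build, annotation, strand setting and the handling of multiply aligned reads are not stated in the sources used here, so values of paralogs and overlapping genes are uncertain to that extent. The table had 7230 lines and 7109 identifiers; 97 identifiers were repeated with identical counts and entered once. Its own name column gave 16 of the sterol genes, and 14 were found by systematic name through RefSeq R64, used only for names and gene order. The members and lists were chosen with earlier results of these data known.

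Tests used edgeR 4.0.16 in R 4.3.3 (quasi-likelihood, robust, TMM scaling) in a single fit of all 12 libraries with no block term, after filterByExpr had kept 6463 genes, and Benjamini-Hochberg adjustment ran over all of these. SE was taken as the absolute change over the root of F. CPM use TMM-scaled library sizes. No label says that replicates were separate clones, so p-values measure the spread between these cultures. Replicates differed by more than counting noise (chi-square over its degrees of freedom at least 63.6).

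All 30 genes are named. By rule, each library's value is given for up to 3 called members with the largest change per comparison and role, for paralog pairs and for SUT1; further members are shown likewise. Up to 2 called genes per surrounding list and comparison are named; TGL1, HRD1, HRD3 and URA3's odd library were singled out after their values were seen. Alternatives were RLE and library-size scaling, DESeq2 1.42.0, limma-voom (limma 3.58.1), no filter, an average of 4 or more in log2 CPM, a replicate block, a fit of just the libraries compared, and leaving out each library. Promoter motifs were not analysed here. The tests were checked on simulated data. Of 1.5-fold changes 58.2% were recovered for MMS in hel2 cells and 19.4% for the difference of MMS effects. Of 4-fold changes 98.5% and 92.4% were. All groups were drawn from wild type means with few genes changed, so the choice of scaling was not checked.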

Additional observations from a re-analysis of the deposited data

Results flagged for a closer look

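The MMS effect differed between the strains for 17 sterol genes by the test of that difference itself, given as the effect in hel2 cells minus the effect in the wild type on the log2 scale. Among the mevalonate steps the differences were -0.61 for ERG10, -1.05 for ERG13, -0.52 for HMG2, -0.32 for ERG12, -0.75 for MVD1 and 0.51 for ERG8. Among the late sterol steps they were -0.59 for ERG24, -0.72 for ERG25, -0.44 for ERG26, -0.45 for ERG27, -0.66 for ERG6, -0.53 for ERG3 and -1.13 for ERG4. The remaining ones were -0.60 for NCP1, -0.58 for SUT1, -0.91 for ARE1 and -0.43 for ARE2. ERG4 and ARE1 fell in hel2 cells and rose in the wild type with the scaling used, with -0.59 and -0.44 in hel2 cells against 0.55 and 0.48 in the wild type. With library-size scaling neither change in hel2 cells passed, at -0.03 for ERG4 (adjusted p = 0.806) and 0.12 for ARE1 (adjusted p = 0.266). ARE2 rose in both strains, by 1.49 in hel2 cells against 1.92 in the wild type.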

How the results depend on the processing

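Median-ratio scaling, limma-voom, no filter, the replicate block and only the libraries compared changed no call of a sterol gene in the 2 comparisons of MMS with untreated cells, in the comparison of strains under MMS or, where run, in the difference of MMS effects. Library-size scaling changed most. With it, sterol genes higher numbered 5 for MMS in hel2 cells, 5 for MMS in the wild type, 5 for hel2 against wild type with MMS, 1 without MMS and 3 for the difference of MMS effects, and sterol genes lower numbered 12 with MMS and 8 for the difference. All genes lower then numbered 1275, 1334, 984, 75 and 748 in that order, and all genes higher 3143 with MMS. Its values that turned sign were, for MMS in hel2 cells, HMG2 0.25, ERG12 0.33, ERG8 0.47, ERG9 0.29, ECM22 0.27 and ARE1 0.12; for MMS in the wild type, ERG9 0.0656; for hel2 against wild type with MMS, HMG1 0.016, ERG12 0.0333, ERG9 0.29, ERG1 0.0193, ERG7 0.23 and ERG11 0.0015; and for the difference, ERG9 0.22. The scaling's construction moves the median of all genes, to 0.11 without MMS.

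For hel2 against wild type without MMS, sterol genes lower numbered 1 with median-ratio scaling, 1 among genes averaging 4 or more in log2 CPM, 1 with only the libraries compared and 2 with DESeq2; all genes lower numbered 419 with DESeq2 and 135 with the replicate block. The cause was not tested. Leaving out each library gave 209 to 261 genes higher and 75 to 135 lower there, and for the difference 1 to 2 sterol genes higher and 11 to 17 lower. It gave 26 to 28 sterol genes lower for MMS in hel2 cells, 24 to 25 in the wild type and 18 to 20 for hel2 with MMS; fewer samples enter these fits. A group left with 2 libraries shares the spread of the others.

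The replicate numbers did not pair the samples: of 18 pairs of libraries with the same number, 1 deviated together with a correlation over 0.1, the range was -0.38 to 0.24, and 3 of 12 libraries were most like their own number. The stricter filter removed CYB5, whose counts per library limit it most.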

Other observations

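The mevalonate, squalene and late sterol steps held 23 genes, the scaffold gene ERG28 among them. Of these, 5 encode enzymes that use molecular oxygen directly, namely ERG1, ERG11, ERG25, ERG3 and ERG5. This grouping was made after the values were seen and was not tested. All 5 fell with MMS in both strains, with a median log2 fold change of -2.18 in hel2 cells and -1.89 in the wild type. The other 18 genes had medians of -0.83 and -0.70, with 17 lower and none higher in hel2 cells, and 14 lower and 1 higher in the wild type. In the difference of MMS effects the 5 genes of oxygen-using enzymes had a median of -0.11, with 2 lower, and the other 18 genes a median of -0.43, with 10 lower and 1 higher.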
